A study of Mus musculus with 39 samples.

Results

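Transcripts of 9 genes that steer where leukocytes settle were followed in mice exposed to reduced oxygen for 2 hours. The set held Cxcr4, Cxcl12, Ccr7, Cxcr5, S1pr1, Il7r, Itga4, Cd69 and Gpr183. Members were the probe sets that the array annotation pairs with exactly 1 of these symbols, which gave 17 probe sets of 9 genes among 34945 named probe sets of 18193 genes. The choice of symbols used no measured value of the arrays, but it was made with earlier results of these data known. All mice were of the B6C3F1 hybrid strain, and 39 Affymetrix arrays were made, 1 per sample. The spleen gave 8 reduced oxygen and 8 control arrays, the bone marrow 4 and 3, and the liver 8 and 8. Sample titles call the same groups hypoxia and vehicle. The oxygen level, the nature of the vehicle, the age of the animals and the identity of the animal behind each array are not given in the sources used here. Every animal, controls included, was anaesthetised with ketamine and acepromazine before cervical dislocation. The samples were whole tissue: marrow of the right humerus, a piece of the left lateral liver lobe and part of a spleen cross-section. Since the labels do not say that replicates came from separate animals, p-values measure the spread between these samples.

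CXCL12, made by stromal cells, holds haematopoietic cells and lymphocytes in the bone marrow through its receptor CXCR4. In the spleen CXCR5 leads B cells into follicles, CCR7 leads T cells and dendritic cells into the T zone, and GPR183 senses oxysterols that position B cells at the rim of the follicle. Exit from lymphoid tissue follows sphingosine 1-phosphate through S1PR1, and CD69 binds S1PR1 and takes it off the cell surface. IL7R carries the survival signal of IL-7 in T cells and B cell precursors, and the integrin subunit encoded by Itga4 pairs with a beta chain to bind VCAM1, MAdCAM1 and fibronectin. Glucocorticoids and catecholamines are known to move lymphocytes between blood, spleen and marrow, which is why these genes were read as a group.

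Promoters of 5 of the 9 genes were in the RefSeq promoter table (GRCm38.p6). The stretches printed are the 250 bases before the annotated start, in the 5′ to 3′ direction of the gene, for the member with the largest rise in the spleen and for 1 that fell. Cxcr4 lies at chr1:128588199-128592299 and Gpr183 at chr14:121952331-121965193, both on the minus strand. Capitals mark matches, on either strand, to ACGTG or GCGTG, core letters of hypoxia response elements, and to AGAACA, a glucocorticoid receptor half-site.
Cxcr4 promoter, chr1:128592300-128592549: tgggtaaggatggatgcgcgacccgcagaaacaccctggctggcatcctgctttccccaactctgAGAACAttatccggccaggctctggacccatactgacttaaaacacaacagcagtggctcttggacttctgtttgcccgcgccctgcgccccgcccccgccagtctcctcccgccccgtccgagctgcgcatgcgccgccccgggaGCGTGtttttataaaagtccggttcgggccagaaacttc
Gpr183 promoter, chr14:121965194-121965443: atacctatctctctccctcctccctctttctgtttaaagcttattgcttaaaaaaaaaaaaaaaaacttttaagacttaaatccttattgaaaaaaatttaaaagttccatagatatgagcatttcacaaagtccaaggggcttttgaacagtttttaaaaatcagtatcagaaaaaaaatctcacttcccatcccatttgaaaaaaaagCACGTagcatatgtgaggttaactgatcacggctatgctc
In the Cxcr4 window GCGTG began 39 bases before the start and AGAACA 185 bases before it. In the Gpr183 window ACGTG, read on the opposite strand, began 40 bases before the start, and the windows of Cxcl12, Il7r and Itga4 held none of these motifs. Among all 32851 promoters of the table, 16.6% held ACGTG, 28.2% GCGTG and 16.1% AGAACA, so each motif was common. On a palindrome ACGTG matches both strands and was counted once per promoter. A match describes letters in the window and is not a site.

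The values are log2 of the deposited intensities. Differences in log2 were tested with limma in each tissue on the brightest probe set of each gene, with p adjusted over the 12735 genes that passed a filter on dim genes. The threshold for a call was an adjusted p of 0.05. Log2 changes are given ± their standard error. Array medians ran from 6.16 to 6.2 in spleen, 6.22 to 6.29 in bone marrow and 5.21 to 5.33 in liver, so each tissue was taken as normalized on its own and levels were not tested across tissues. Tissue labels fitted their markers. Over 10 hepatocyte markers the mean was 14.55 to 14.60 in reduced oxygen and 14.54 to 14.60 in control livers, but 4.77 to 5.54 and 4.79 to 5.39 in the spleens. In the spleen 3 arrays stood apart. Replicate 4 of the reduced oxygen group had a T cell marker mean of 7.70 and a B cell marker mean of 9.53, the lowest of all 16. Replicate 2 of that group and control replicate 5 had pancreatic acinar marker means of 10.67 and 13.16, with all other spleens between 5.37 and 5.84. Spleen results are therefore also given without these arrays.

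In the spleen 4 of the 9 genes rose and 2 fell, as the per-array plot of the 9 genes shows. Cxcr4, Cd69, Il7r and Itga4 were higher under reduced oxygen, and Cxcr5 and Gpr183 were lower. Across all genes tested in the spleen 6.83% were called higher and 12.6% lower. The median log2 change of the 9 members was -0.08, against -0.01 for all genes. The spleen is a mixture of cells, so fewer cells of a type and less RNA per cell cannot be told apart.

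**Figure D1:**
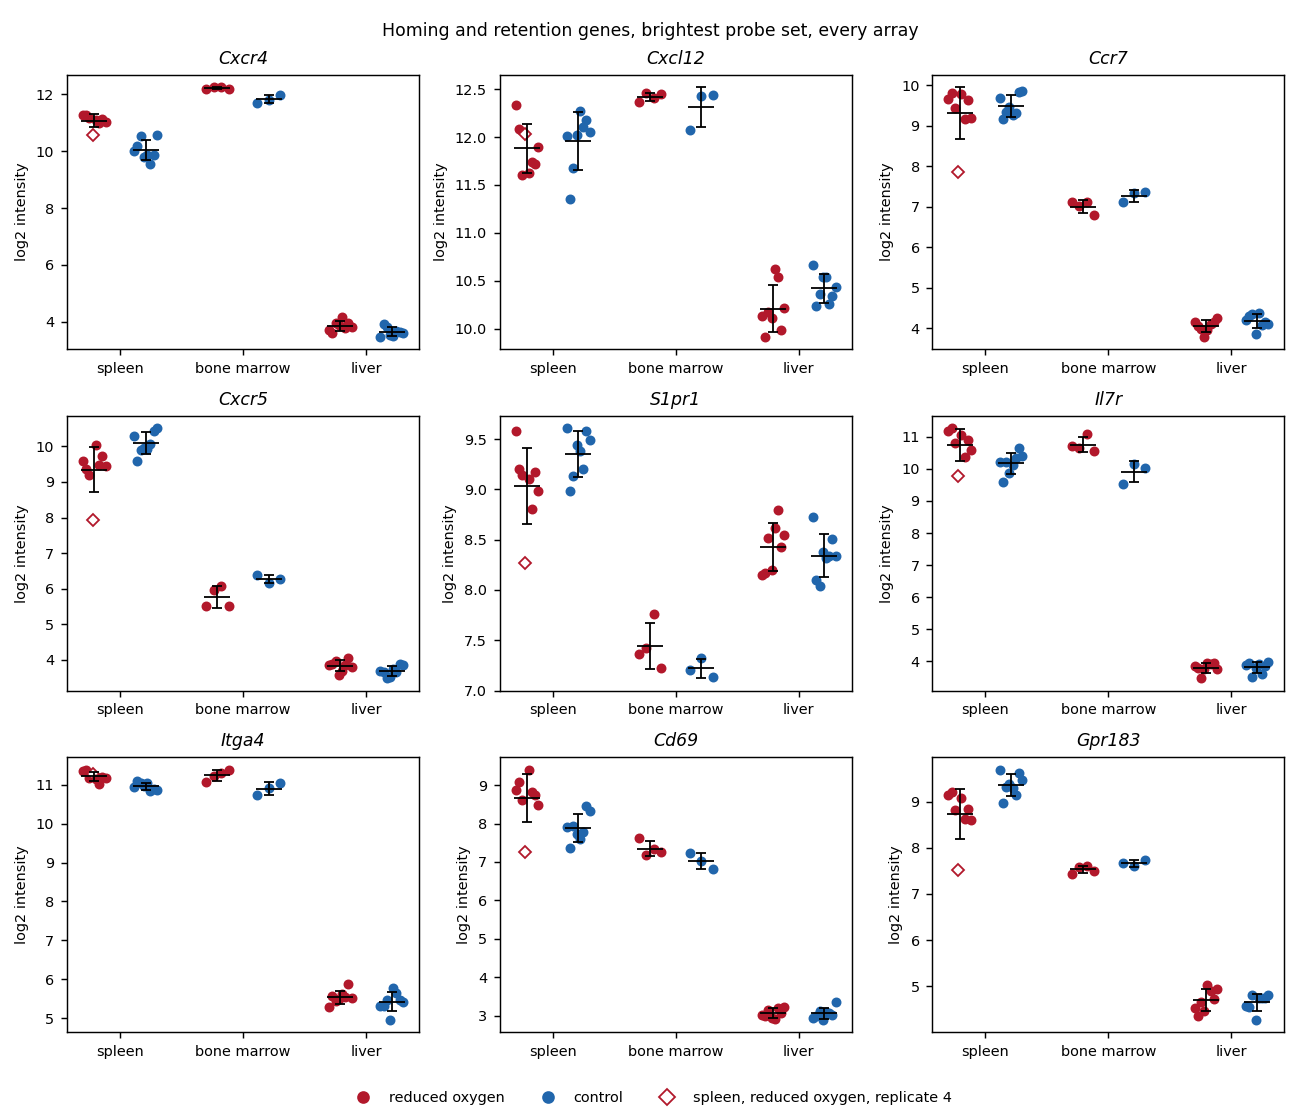
Log2 intensity of the 9 genes on every array, by tissue, with the brightest probe set of each gene in that tissue. Points are arrays, bars the group mean ± SD, and the open diamond is replicate 4 of the reduced oxygen spleens. In spleen all 8 reduced oxygen arrays of Cxcr4 lie above all 8 controls, and 6 of the 9 genes have liver means under a log2 of 5.

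The retention receptor changed most. Cxcr4 ranged from 10.59 to 11.28 in reduced oxygen spleens with a median of 11.12, against 9.55 to 10.57 in control spleens with a median of 9.94. The groups did not overlap, as for 4.69% of all genes tested in spleen. The difference was 1.03 ± 0.14 on the log2 scale, or 2.04-fold (adjusted p = 5.86e-05). It kept its call in each fit with 1 spleen array left out, and within replicates 1 to 4 (0.96, adjusted p = 0.0365) and 5 to 8 (1.09, adjusted p = 0.00313). It was the only member called within replicates 1 to 4, where Cd69 was at 0.72 (adjusted p = 0.320), Il7r at 0.79 (0.201), Itga4 at 0.28 (0.0877), Cxcr5 at -0.92 (0.169) and Gpr183 at -0.67 (0.346). Within replicates 5 to 8 there were 2 members called higher and 4 lower, and Il7r (0.35, adjusted p = 0.124) and Itga4 (0.23, adjusted p = 0.0546) were not among them. The number of calls over all genes differed as well. Of 12735 genes, 245 were called higher and 237 lower within replicates 1 to 4, against 1167 and 2126 within replicates 5 to 8. Cxcl12, which encodes the ligand of CXCR4, stood among the brightest genes of the spleen, with 98.5% of genes dimmer. It ranged from 11.61 to 12.34 in reduced oxygen spleens and from 11.35 to 12.28 in control spleens. The groups overlapped through most of that range, and the difference of -0.08 ± 0.13 was not called (adjusted p = 0.733). Its other 2 probe sets gave 0.07 and 0.08. Within replicates 5 to 8 alone the Cxcl12 difference was -0.41 (adjusted p = 0.00772), and within replicates 1 to 4 it was 0.25 (adjusted p = 0.554).

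Among the genes that govern exit, Cd69, an early activation antigen, rose. Its lowest, median and highest log2 values were 7.26, 8.79 and 9.41 in reduced oxygen spleens, against 7.36, 7.84 and 8.45 in control spleens. All reduced oxygen arrays but replicate 4 lay above every control, and replicate 4 lay below every control. The difference was 0.78 ± 0.23, or 1.71-fold (adjusted p = 0.0266), and 0.98 without replicate 4 (adjusted p = 0.000333). S1pr1, the exit receptor that CD69 takes off the surface, had 8.26, 9.13 and 9.58 in reduced oxygen spleens, against 8.98, 9.41 and 9.61 in control spleens. The ranges overlapped, with 1 of 8 reduced oxygen arrays above the control median. Its difference of -0.32 ± 0.15 was not called (adjusted p = 0.136). Leaving out reduced oxygen replicate 1 brought it past the threshold, at -0.40 (adjusted p = 0.0480), and fitting replicates 5 to 8 alone did so too, at -0.40 (adjusted p = 0.0235). It was at -0.24 within replicates 1 to 4 (adjusted p = 0.702) and at -0.21 without reduced oxygen replicate 4 (adjusted p = 0.216).

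The receptors that place cells within the white pulp did not move alike. Cxcr5, the follicle receptor, had lowest, median and highest values of 7.93, 9.47 and 10.05 in reduced oxygen spleens, against 9.59, 10.01 and 10.51 in control spleens. Most reduced oxygen arrays, 6 of 8, lay below every control. Cxcr5 fell by 0.74 ± 0.23 on the log2 scale, 1.66-fold (adjusted p = 0.0280). Gpr183, the oxysterol receptor, had 7.51, 8.83 and 9.21 in reduced oxygen spleens, against 8.97, 9.35 and 9.69 in control spleens. No reduced oxygen array reached the control median. It fell by 0.63 ± 0.19, or 1.55-fold (adjusted p = 0.0264). On its dimmer probe set, 1457691_at, the groups did not overlap, with 5.86 to 7.09 in reduced oxygen spleens and 7.25 to 7.93 in control spleens, and the difference was -0.82 (adjusted p = 0.00141 over all probe sets). Ccr7, the T zone receptor, was 7.85 in reduced oxygen replicate 4 and 9.16 to 9.80 in the other 7 reduced oxygen spleens, against 9.15 to 9.85 in control spleens. Apart from that array the groups overlapped almost fully. Its difference was -0.18 ± 0.22 (adjusted p = 0.637), and 0.032 without replicate 4 (adjusted p = 0.904).

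Il7r, the survival receptor, had lowest, median and highest values of 9.79, 10.85 and 11.26 in reduced oxygen spleens, against 9.60, 10.20 and 10.64 in control spleens. The lowest reduced oxygen value was again replicate 4, and 5 of 8 lay above every control. Il7r rose by 0.57 ± 0.19, 1.49-fold (adjusted p = 0.0418). That call was near the threshold. It was lost in 12 of the 16 fits that left out 1 array, with adjusted p up to 0.0795, and was kept without reduced oxygen replicate 4 or 6 or control replicate 7 or 8. The second probe set of Il7r gave 0.51 (adjusted p = 0.101 over all probe sets).

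Itga4, the alpha chain of the VCAM1 receptor, changed least among the called genes. On its brightest probe set, 1436037_at, the values were 11.01 to 11.38 in reduced oxygen spleens and 10.84 to 11.08 in control spleens, with 7 of 8 reduced oxygen arrays above every control. The rise was 0.25 ± 0.06, or 1.19-fold (adjusted p = 0.00564). Its 5 probe sets did not agree on a direction, as the plot by probe set shows. Probe set 1456498_at rose by 0.36, without overlap of the groups (adjusted p = 0.000226 over all probe sets). The very dim 1427615_at rose by 0.70 (adjusted p = 0.000674), and 1450155_at gave 0.28 (adjusted p = 0.126). Probe set 1421194_at fell by 0.28 (adjusted p = 0.00972), with 7.14 to 7.45 in reduced oxygen spleens and 7.28 to 7.78 in control spleens. The call of Itga4 is that of its brightest probe set, and 1 of the other 4 went the opposite way past the threshold.

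**Figure D2:**
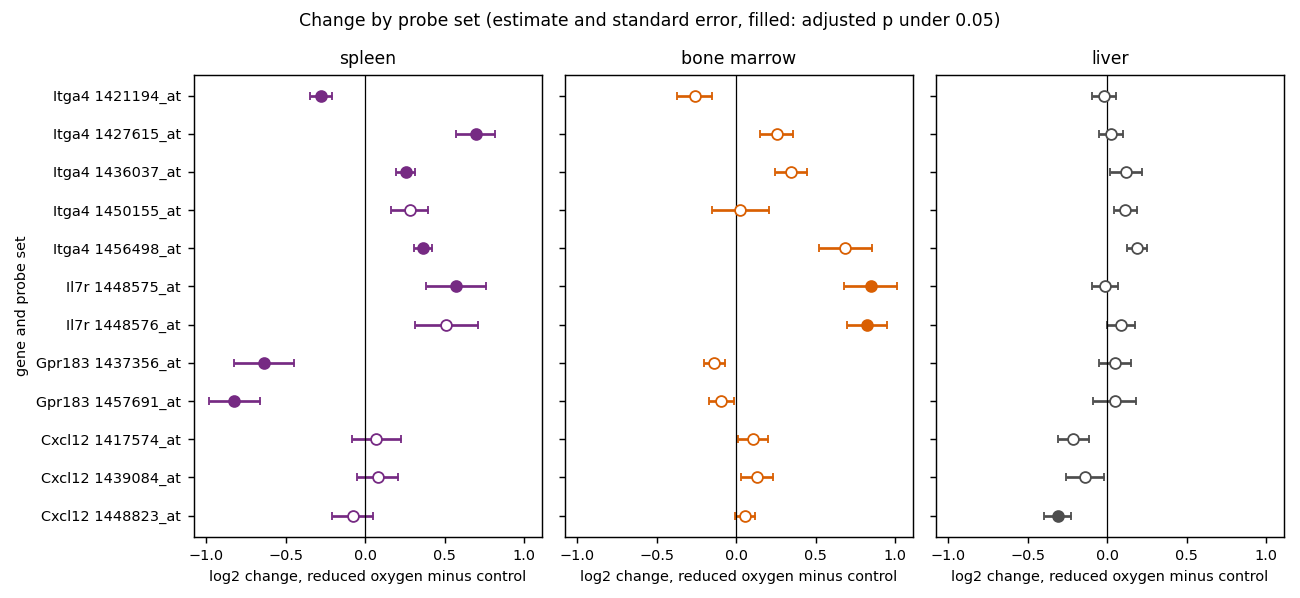
Log2 change, reduced oxygen minus control, of each probe set of the 4 genes with more than 1 probe set, in spleen, bone marrow and liver. Points are limma estimates, bars standard errors, and filled points have adjusted p under 0.05 over all named probe sets. Itga4 has 3 filled points right of 0 and 1 left of 0 in spleen, while both probe sets of Il7r and of Gpr183 lie on 1 side of 0 there.

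Markers of several cell types were called in the spleen beside these genes. Over all 12735 genes tested there 6.83% were called higher and 12.6% lower, and 4045 had an unadjusted p under 0.05. Of 13 T cell markers none was called by limma and 2 had an unadjusted p under 0.05, with a median log2 change of -0.28. Of 13 B cell markers 4 fell and none rose, with a median of -0.48. None of these 13 had a positive change, and 9 had an unadjusted p under 0.05. The B cell marker mean was 9.53 to 11.30 in reduced oxygen spleens and 10.92 to 11.56 in control spleens. Of 14 neutrophil markers 4 rose, and all 14 had a positive log2 change, with a median of 1.05. Their mean was 8.27 to 11.57 in reduced oxygen spleens and 8.57 to 9.85 in control spleens. All 9 erythroid markers tested had a positive change, with none called and 0 at an unadjusted p under 0.05, and the mean over 10 markers, 1 of them too dim to be tested, was 10.12 to 11.58 in reduced oxygen spleens and 8.67 to 11.71 in control spleens. Of 9 dendritic cell markers 3 fell, of 9 NK cell markers 2 rose, of 13 macrophage and monocyte markers 2 rose and of 8 plasma cell markers 1 fell. Of 8 megakaryocyte and platelet markers none was called by limma, while all 8 had a positive change and 5 an unadjusted p under 0.05.

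With the mean of the T and B cell markers of each array as a covariate, Cxcr4 differed by 1.14 (adjusted p = 1.63e-05), Cd69 by 1.19 (adjusted p = 4.86e-08) and Il7r by 0.89 (adjusted p = 6.22e-06). In that fit Cxcr5 differed by -0.34 (adjusted p = 0.0135) and Gpr183 by -0.30 (adjusted p = 0.0106), smaller than without the covariate but still called. S1pr1 was at -0.096 (adjusted p = 0.522), against -0.32 without the covariate. Ccr7 turned to 0.23 (adjusted p = 0.00993), which made 5 of 9 genes higher and 2 lower. The covariate itself differed between the groups. T cell markers averaged 8.94 in reduced oxygen and 9.21 in control spleens, and B cell markers 10.83 and 11.30. The covariate fit was not run without reduced oxygen replicate 4, the array of lowest marker means. Without that array and without a covariate Ccr7 was at 0.032 (adjusted p = 0.904). In the plot of gene levels against the marker mean, the reduced oxygen arrays of Cxcr4, Il7r and Cd69 lay above controls of like marker level. Cxcr5, Gpr183 and Ccr7 were higher on arrays with higher marker means in both groups. With the neutrophil marker mean as covariate, a fit added after the data were seen, Cxcr4 (1.13), Cd69 (1.04), Il7r (0.83) and Itga4 (0.32) kept their calls, while Cxcr5 (-0.56, adjusted p = 0.202) and Gpr183 (-0.35, adjusted p = 0.292) lost theirs.

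**Figure D3:**
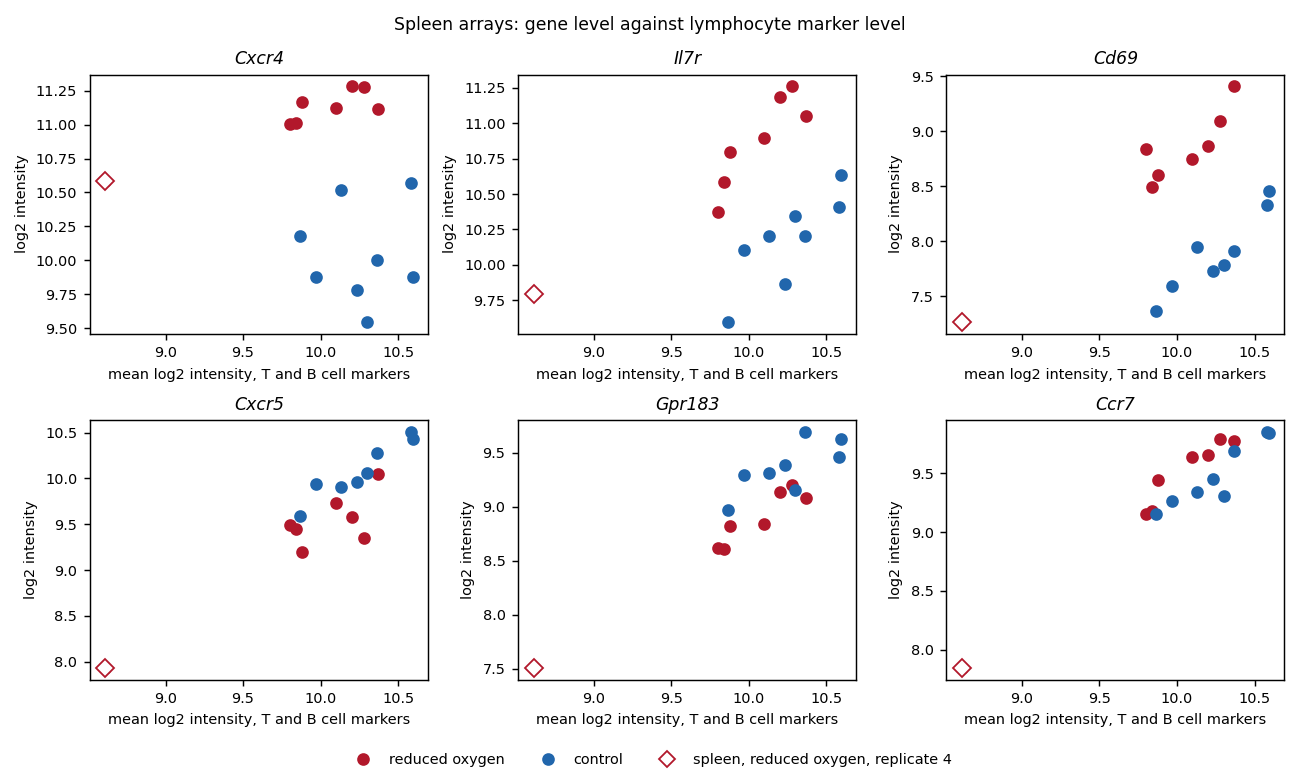
Log2 intensity of 6 genes (y axes) against the mean log2 intensity of the T and B cell markers (x axes) on the 16 spleen arrays. Reduced oxygen arrays are red and controls blue, and the open diamond is reduced oxygen replicate 4, the leftmost array in each panel. Red points lie above blue points at like marker levels for Cxcr4, Il7r and Cd69.

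Without reduced oxygen replicate 4 the same 6 spleen genes were called in the same directions, with Cxcr4 at 1.10, Il7r at 0.71, Itga4 at 0.25, Cxcr5 at -0.53 and Gpr183 at -0.46. Without the 2 arrays of high acinar markers, Cxcr4, Itga4 and Gpr183 kept their calls, while Cd69 (0.67, adjusted p = 0.0822), Il7r (0.49, adjusted p = 0.108) and Cxcr5 (-0.76, adjusted p = 0.0507) did not. Without all 3 arrays the count returned to 4 higher and 2 lower. Among fits without 1 array, Cxcr5 lost its call without reduced oxygen replicate 3 (adjusted p = 0.0517), control replicate 7 (0.0564) or control replicate 8 (0.0582), and Gpr183 without control replicate 1 (0.0514) or 7 (0.0523).

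**Figure D4:**
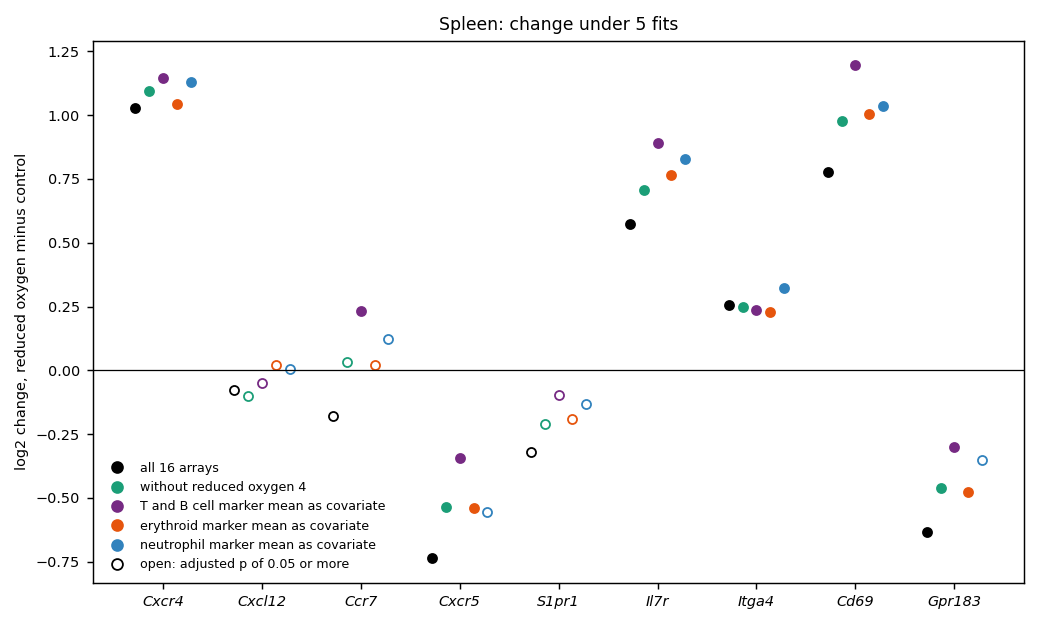
Spleen log2 change, reduced oxygen minus control, of the 9 genes under 5 fits: all 16 arrays, without reduced oxygen replicate 4, and with the T and B cell, the erythroid or the neutrophil marker mean as a covariate. Filled points have adjusted p under 0.05. Cxcr4, Cd69, Il7r and Itga4 are above 0 and filled in all 5 fits, Cxcr5 and Gpr183 are below 0 in all 5, and Ccr7 crosses 0.

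In bone marrow 2 of the 9 genes rose and none fell by limma. Cxcr4 and Il7r were higher, and the other 7 did not pass the test. At an unadjusted p under 0.05, 4 were higher and 2 lower, where 3148 of all 12735 genes tested passed that cutoff. Across all genes tested in marrow 2.76% were called higher and 4.92% lower. The median log2 change of the 9 members was 0.22, against -0.01 for all genes. Marrow is the main site of CXCL12 retention, and Cxcr4 and Cxcl12 were both among the brightest genes, with 97.6% and 98.2% of genes dimmer.

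Cxcr4 read 12.19, 12.26, 12.25 and 12.19 in the 4 reduced oxygen marrows, against 11.70, 11.80 and 11.97 in the 3 control marrows. All 4 lay above all 3 controls. The rise was 0.40 ± 0.07, or 1.32-fold (adjusted p = 0.0145). Il7r read 10.70, 10.65, 11.08 and 10.57 in reduced oxygen marrows, against 9.53, 10.16 and 10.01 in control marrows. The groups again did not overlap, on this probe set and on the second one. Such separation was seen for 20.5% of all genes tested in marrow. Il7r rose by 0.85 ± 0.17, 1.80-fold (adjusted p = 0.0192), and its second probe set by 0.82 (adjusted p = 0.0137 over all probe sets). With so few arrays 1 sample can end a call. Leaving out reduced oxygen replicate 2 ended both (adjusted p = 0.0551 for Cxcr4 and 0.0535 for Il7r), and leaving out control replicate 2 ended that of Cxcr4 (0.0549).

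Cxcr5 and Itga4 separated the marrow groups too, but neither was called. Groups without overlap were common there, at 20.5% of all genes tested. Cxcr5 read 5.50, 5.98, 6.08 and 5.52 in reduced oxygen marrows, against 6.40, 6.17 and 6.28 in control marrows, a difference of -0.51 ± 0.15 (adjusted p = 0.0765). It was a dim gene there, with 34.9% of genes dimmer. Itga4 read 11.06, 11.21, 11.30 and 11.38 in reduced oxygen marrows, against 10.72, 10.92 and 11.04 in control marrows. Its difference was 0.34 ± 0.10 (adjusted p = 0.0717), and it passed the threshold without reduced oxygen replicate 1 (0.40, adjusted p = 0.0472). As in the spleen its probe sets differed in sign, with 0.69 for 1456498_at (adjusted p = 0.0631) and -0.26 for 1421194_at (adjusted p = 0.261).

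The remaining marrow differences were smaller relative to their spread. Cd69 differed by 0.32 ± 0.12 (adjusted p = 0.155), S1pr1 by 0.22 ± 0.12 (adjusted p = 0.290; 0.12 without reduced oxygen replicate 3) and Cxcl12 by 0.10 ± 0.09 (adjusted p = 0.538). Ccr7 differed by -0.26 ± 0.10 (adjusted p = 0.146) and Gpr183 by -0.14 ± 0.07 (adjusted p = 0.243). Cxcl12 read 12.36, 12.46, 12.40 and 12.45 in reduced oxygen marrows, against 12.07, 12.42 and 12.44 in control marrows, so that only control replicate 1 lay apart. Without that array the Cxcl12 difference was -0.017.

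Few cell type markers were called in marrow. Over all 12735 genes tested there 3148 had an unadjusted p under 0.05. By limma none of 10 T cell, 13 B cell, 11 B cell precursor and 14 neutrophil markers was called, and 2, 1, 3 and 1 of them had an unadjusted p under 0.05. The mean over 13 T cell markers, 3 of them too dim to be tested, was 6.93 to 7.09 in reduced oxygen marrows and 6.80 to 6.92 in control marrows, the B cell mean 9.11 to 9.42 and 9.02 to 9.51, and the B cell precursor mean 9.19 to 9.31 and 8.92 to 9.51. Of 8 NK cell markers 1 fell and 4 had an unadjusted p under 0.05. Of 14 endothelial and stromal markers tested 3 rose, and the mean over all 15 was 9.31 to 9.46 in reduced oxygen marrows and 9.09 to 9.33 in control marrows. The part of these markers in the marrow results was not tested beyond fits with the T and B cell or erythroid marker mean as a covariate, in which Cxcr4 and Il7r kept their calls. Ccr7 was called lower in the fit with the T and B cell mean (-0.30, adjusted p = 0.0297), and Itga4 was called higher in that with the erythroid mean (0.35, adjusted p = 0.0431).

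**Figure D5:**
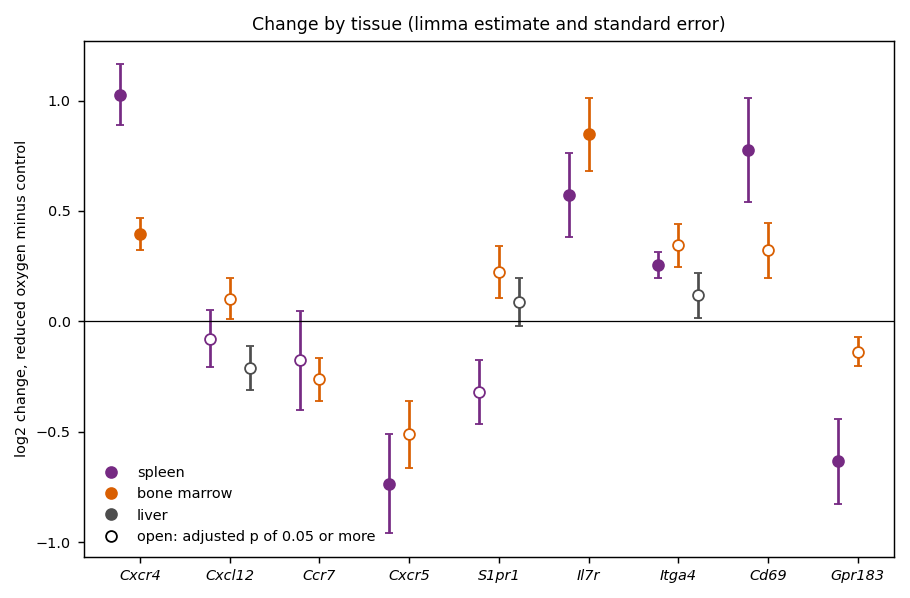
Log2 change, reduced oxygen minus control, of each gene in spleen, bone marrow and liver (limma estimate ± standard error). Filled points have adjusted p under 0.05, and the 6 genes that did not pass the dim-gene filter in liver have no liver point. Cxcr4 and Il7r are filled in spleen and marrow, and no liver point is filled.

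In liver none of the genes was called by adjusted p, and only Cxcl12, S1pr1 and Itga4 were bright enough to be tested. At an unadjusted p under 0.05, which 3112 of all 12735 liver genes passed, Cxcl12 was lower. The exact rank test called none of the members either. Of all liver genes 3.88% rose, 7.22% fell and 2.84% separated the groups. The replicate number, which by the rule used paired the liver arrays, gave 2385 calls as a block, against 1413 without it, and again none of the members was among them. The other 6 genes had mean log2 values of 3.06 to 4.68, under the dim-gene threshold of 4.93, and were left out there. Cxcl12 was the brightest, at 9.91 to 10.62 in reduced oxygen livers and 10.23 to 10.66 in control livers. Most reduced oxygen arrays, 6 of 8, lay below every control, and the difference was -0.21 ± 0.10 (adjusted p = 0.195). On a second Cxcl12 probe set, 1448823_at, the values were 9.73 to 10.31 in reduced oxygen livers and 10.14 to 10.36 in control livers, a fall of 0.31 (adjusted p = 0.0291 over all probe sets). S1pr1, which vessels also express, was 8.15 to 8.80 in reduced oxygen livers and 8.04 to 8.72 in control livers (0.09 ± 0.11, adjusted p = 0.703). Itga4 was 5.29 to 5.88 and 4.97 to 5.79 in those groups (0.12 ± 0.10, adjusted p = 0.543). Both overlapped. Some neutrophil markers were also higher in reduced oxygen livers, with 4 of 11 tested called and a mean over all 14 of 5.21 to 6.79, against 5.26 to 5.43 in control livers, and their part in the liver values was not tested.

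By limma's test of the difference, with 1 spread for all arrays, no member was called as differing between tissues in its response. All 9 were tested between spleen and marrow, but only Cxcl12, S1pr1 and Itga4 in the contrasts with liver. At an unadjusted p under 0.05, 2 of 9 differed between spleen and marrow, 1 of 3 between spleen and liver and 0 of 3 between marrow and liver. The share of all genes at that cutoff was not counted for these contrasts. The interaction of spleen and marrow was called for 0.289% of genes, that of spleen and liver for 9.74% and that of marrow and liver for 2.74%. The log2 change of Cxcr4 was larger in spleen than in marrow by 0.63 ± 0.20 (adjusted p = 0.287, but 0.0184 and so called with a spread estimated per tissue by array weights), and that of S1pr1 differed by -0.54 ± 0.23 (adjusted p = 0.502). Between spleen and liver S1pr1 differed by -0.41 ± 0.18 (adjusted p = 0.143). A p that misses the threshold does not show that the tissues responded alike.

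Genes around the receptors were read from lists that leave out the 9 members. Of 5 ligands tested in spleen 1 fell and none rose, with a median log2 change of -0.26 against -0.01 for all genes. That gene was Il7, the cytokine that IL7R binds, which averaged 6.80 in reduced oxygen and 7.56 in control spleens (-0.76 ± 0.21, adjusted p = 0.0141; -0.34 and uncalled with the neutrophil marker mean as covariate). Vcam1, the partner of the Itga4 integrin, differed by 0.25 ± 0.09 (adjusted p = 0.0721), and Cxcl13, the ligand of CXCR5, by -0.34 (adjusted p = 0.460). In marrow and liver none of 4 and of 3 ligands tested was called by limma, with 1 and 0 at an unadjusted p under 0.05. Among 5 partner subunits and signalling partners none was called in any of the 3 tissues and 1 in each had an unadjusted p under 0.05, with Itgb7, which pairs with Itga4, nearest in spleen (-0.35 ± 0.12, adjusted p = 0.0571).

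Few enzymes and transporters of the lipid ligands were called. Of 10 tested in spleen 2 fell and none rose, against 12.6% lower and 6.83% higher over all genes there. The median was -0.01, as over all genes, and 5 of the 10 had a positive change. Ch25h, which makes the oxysterol precursor of the GPR183 ligand, averaged 5.85 in reduced oxygen and 6.55 in control spleens (-0.70 ± 0.16, adjusted p = 0.00420). Spns2, which exports sphingosine 1-phosphate from endothelium, fell by 0.35 ± 0.11 (adjusted p = 0.0276). In liver 2 of 7 fell, Spns2 by 0.77 ± 0.09 (adjusted p = 1.18e-05) and the sphingosine kinase gene Sphk2 by 0.54 ± 0.16 (adjusted p = 0.0320). In marrow 1 of 8 rose, and it was Spns2 (0.29 ± 0.07, adjusted p = 0.0394). The calls of Spns2 in spleen and marrow and of Sphk2 in liver were near the threshold. That of Spns2 was lost in 7 of 16 spleen fits and 6 of 7 marrow fits without 1 array, and that of Sphk2 in 6 of 16 liver fits.

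Of 18 other chemokine and sphingosine-phosphate receptors tested in spleen 2 rose and 2 fell, shares not far from the 6.83% and 12.6% over all genes. Ackr3, a scavenger receptor of CXCL12, rose by 0.56 ± 0.14 (adjusted p = 0.0102; 0.28 and uncalled within replicates 5 to 8), and Cxcr2, the neutrophil receptor, rose by 0.73 ± 0.25 (adjusted p = 0.0478). S1pr4, a lymphocyte receptor for sphingosine 1-phosphate, fell by 0.39 ± 0.10 (adjusted p = 0.00955), and Xcr1, of cross-presenting dendritic cells, fell by 0.40 ± 0.13 (adjusted p = 0.0419). Of 15 tested in marrow S1pr3 (1.25 ± 0.09, adjusted p = 0.000316) and Cxcr3 (0.47 ± 0.08, adjusted p = 0.0142) rose, while S1pr2 (-0.64 ± 0.13, adjusted p = 0.0189) and S1pr4 (-0.43 ± 0.08, adjusted p = 0.0192) fell. In liver 1 of 12 rose, the decoy receptor gene Ackr2 (0.48 ± 0.10, adjusted p = 0.00432). The calls of Cxcr2 and Xcr1 were each lost in 11 of 16 fits without 1 spleen array. In marrow S1pr2 was at -0.10 without control replicate 1 (adjusted p = 0.444) and uncalled without reduced oxygen replicate 2, S1pr4 was uncalled without reduced oxygen replicate 2 or 3, and Cxcr3 without control replicate 2. The medians of this list were -0.07 in spleen, -0.04 in marrow and 0.0035 in liver.

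Adhesion molecules gave 4 rises and 1 fall among 22 tested in spleen. Itgam, the alpha chain of the neutrophil and monocyte integrin Mac-1, rose by 0.94 ± 0.24 (adjusted p = 0.0106), and Selp, which encodes P-selectin, by 0.66 ± 0.20 (adjusted p = 0.0307). Cd44 rose by 0.28 ± 0.09 (adjusted p = 0.0324). Selp lost its call in 5 and Cd44 in 6 of 16 fits without 1 array. Icam1, a ligand of leukocyte integrins, fell by 0.64 ± 0.12 (adjusted p = 0.00105). By limma none of 23 in marrow or 19 in liver was called, with 4 and 1 at an unadjusted p under 0.05. With the neutrophil marker mean as covariate the spleen differences of Itgam (0.40, adjusted p = 0.124), Selp (0.27, adjusted p = 0.388) and Cxcr2 (0.23, adjusted p = 0.543) were no longer called. Cxcr2 is itself among the markers in that mean, so a smaller difference of Cxcr2 was built into the fit.

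Among regulators of the receptors Rgs1 rose in all 3 tissues. RGS1 shortens G protein signals of chemokine receptors. It averaged 9.62 in reduced oxygen and 8.41 in control spleens (1.21 ± 0.11, adjusted p = 1.11e-06), 7.82 and 6.42 in the marrow groups (1.41 ± 0.17, adjusted p = 0.00375), and 5.88 and 4.90 in the liver groups (0.98 ± 0.16, adjusted p = 0.000308). The liver control mean lay under the dim-gene threshold of 4.93, so Rgs1 passed the filter there only through the reduced oxygen arrays. Its liver call was lost in 1 of 30 alternatives (adjusted p = 0.0644). Grk3, a kinase that desensitises activated receptors, fell in spleen by 0.33 ± 0.08 (adjusted p = 0.00462), but was at -0.053 (adjusted p = 0.712) without probe sets of the suffixes _s_at and _x_at, at -0.20 (0.0851) over the mean of its probe sets and at -0.21 (0.323) within replicates 1 to 4. These were the only calls among 18 regulators tested in spleen, where the median was 0.04. In marrow 2 of 18 rose, the second being the arrestin gene Arrb2 (0.41 ± 0.08, adjusted p = 0.0197), which was at 0.25 without reduced oxygen replicate 3 (adjusted p = 0.315) and also uncalled without replicate 2 of either group. In liver 5 of 16 rose, among them Klf3 (1.24 to 1.35 in fits without 1 array, adjusted p at most 6.44e-07). Klf2 (0.99 ± 0.16, adjusted p = 0.000260), which in mouse T cells drives S1pr1, and Foxo1 (0.83 ± 0.15, adjusted p = 0.00104), which in mouse T cells drives Il7r, also rose there. Klf2 was not called in spleen (0.21, adjusted p = 0.348) or marrow (0.13, adjusted p = 0.214). In liver S1pr1 was not called and Il7r was too dim to be tested, and a link to T cells was not tested.

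Genes induced by glucocorticoids were read together with the hormone receptors. Of 13 tested in spleen 8 rose and none fell, with a median log2 change of 1.19. Dusp1, a phosphatase gene that glucocorticoids induce, rose by 2.36 ± 0.12 (adjusted p = 2.11e-09), and Fkbp5, a chaperone of the glucocorticoid receptor, by 1.75 ± 0.17 (adjusted p = 2.14e-06). Of 12 tested in marrow 8 rose and 1 fell, with a median of 1.37, and Ddit4, a stress gene also induced by hypoxia, rose by 3.93 ± 0.09 (adjusted p = 2.05e-07). Of 13 tested in liver 6 rose and none fell, with a median of 0.18. In fits without 1 array Ddit4 rose there by 4.71 to 4.95, Dusp1 by 2.93 to 3.08 and Sgk1 by 2.16 to 2.28. Early activation genes, which share with Cd69 a rapid response to stimulation, were called in both directions in spleen. Of 13 there 3 rose, among them Fos (2.16 ± 0.23, adjusted p = 4.89e-06), and 2 fell, Egr3 (-1.69 ± 0.24, adjusted p = 0.000108) and Egr2 (-0.84 ± 0.15, adjusted p = 0.000558). In marrow 6 of 13 and in liver 6 of 12 rose, with none lower. These lists had shown changes in earlier results of these data and are not independent support.

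Likeness of pattern could be measured only for Itga4, the only called gene that was tested in all 3 tissues. By Euclidean distance between the log2 changes in spleen, marrow and liver, its nearest neighbours among 11074 genes were Ifitm5 at 0.05, Sesn2 at 0.06 and Wfikkn1 at 0.06. Each of these had small positive changes, from 0.22 to 0.29 in spleen, 0.31 to 0.38 in marrow and 0.06 to 0.12 in liver. The Itga4 changes had standard errors of 0.06 in spleen, 0.10 in marrow and 0.10 in liver, and only that in spleen was called. Distances of this size therefore do not set these genes apart from others with small changes.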

How the data were processed

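RNA was labelled with biotin after 1 round of amplification and hybridised to Affymetrix arrays. The authors deposited linear intensity values per probe set, from 5.78 to 43830. RMA and limma are named per the submitters' processing notes, with no versions. The array files name no genome build. Coordinates and promoters come from RefSeq tables of GRCm38.p6. Of 45101 probe sets, 34958 had 1 gene symbol in the platform annotation, 932 several and 9211 none, and 34741 matched the RefSeq gene list by gene ID.

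Log2 was taken of the intensities as deposited, with a pseudocount of 0. Each gene was represented by its probe set of highest mean in the tissue, and genes in the dimmest 30% were not tested. The software was R 4.3.3, limma 3.58.1 and data.table (1.17.8). Each tissue had its own two-sided fit by lmFit and eBayes, with Benjamini-Hochberg adjustment over all 12735 genes, and the fits were tested on simulated data. Interactions came from a limma fit with 6 groups and 39 arrays, over genes that passed the filter in both tissues. The number of arrays limits the precision.

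The members and the 21 gene lists, with 284 entries of which 253 had a named probe set, were chosen with earlier results of these data known. From each list up to 4 called genes of smallest p were to be named per tissue, or the 2 of smallest p where fewer than 2 were called. After the results were seen this was narrowed, so that cell type markers are given as counts, medians and ranges. In the other lists not every gene picked by that rule is named. Values of Klf2 in spleen and marrow and of Cxcl13 were added. Alternatives covered the choice and filter of probe sets, normalization, marker means as covariates, array sets, the variance prior, a rank test, a replicate block and leaving out arrays.

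Groups share replicate numbers. Same-number correlations of deviations ran from -0.48 to 0.31 over 8 pairs in spleen and from -0.03 to 0.32 over 3 pairs in marrow, which does not pair the samples. In liver they ran from 0.17 to 0.54 over 8 pairs, all above 0.1, which by the rule used pairs the numbers. The mean was 0.303, against 0.263 between different numbers within replicates 1 to 4 or 5 to 8, and 4 of 8 correlated best with their own number. The labels name no shared animal or batch.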

Additional observations from a re-analysis of the deposited data

Results flagged for a closer look

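In groups of 4 to 10 arrays, a value that stood farther from its neighbours than Dixon's critical value allows was looked at again. Of 85 groups over the 17 probe sets, 9 held such a value, and chance gives about 1 in 20. Replicate 4 of the reduced oxygen spleens held 6 of them, all lowest in their group: Cxcr4 at 10.59, Ccr7 at 7.85, Cxcr5 at 7.93, Cd69 at 7.26 and Gpr183 at 7.51 on 1437356_at and 5.86 on 1457691_at. The same array had the lowest T and B cell marker means of the spleens, and the part of that in its values was not tested apart from the fits without it. The other 3 were single values of dim probe sets. Il7r was 3.48 in reduced oxygen replicate 3 of liver, Itga4 on 1427615_at was 4.22 in reduced oxygen replicate 4 of marrow, and Cd69 was 3.35 in control replicate 8 of liver.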

How the results depend on the processing

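Cxcr4 in spleen kept its direction and its call in all 34 alternatives run, from 0.96 to 1.18. Over all members and alternatives 653 values kept their direction and side of the threshold, 39 lost a call, 8 gained one and 12 changed sign, and the causes were not tested. The calls in spleen (2469) became 5102 with every probe set tested, which counts probe sets, 482 within replicates 1 to 4, with fewer arrays, and 1557 with the neutrophil marker covariate, added after the data were seen. In marrow (979) they became 1566 with the erythroid covariate and 408 to 908 without 1 array (lowest without reduced oxygen replicate 2). In liver (1413) they became 2620 with every probe set, 2385 with the replicate block, 2977 with the T and B cell covariate, 774 with the erythroid covariate, 2668 with the array set as a term and 781 within replicates 1 to 4. Differences between spleen and marrow (35) became 55 without the filter, 301 with a spread per tissue, 21 with the replicate block within tissue and 9 to 45 without 1 array. Those between marrow and liver (311) became 938 with a spread per tissue and 167 to 300 without 1 array. The exact rank test was not run in marrow, where 4 against 3 cannot give a p under 0.0571.

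Uncalled values changed sign as follows. Spleen Cxcl12 (-0.08) became 0.0242 with the mean of its probe sets, 0.0225 with the erythroid covariate, 0.25 within replicates 1 to 4 and 0.00665 with the neutrophil covariate. Spleen Ccr7 (-0.18) became 0.23 with the T and B cell covariate, which called it, 0.0197 with the erythroid and 0.12 with the neutrophil covariate, 0.14 as a difference of medians beside the rank test, and -0.25 to 0.0323 without 1 array. Marrow Cxcl12 (0.10) ran from -0.0173 to 0.17 without 1 array. Liver S1pr1 (0.09) was -0.0489 within replicates 1 to 4, and liver Itga4 (0.12) was -0.14, Vcam1 -0.079 and S1pr5 0.0145 with the erythroid covariate. Spleen Itgb1 (0.11) was -0.0142 within replicates 5 to 8. With the replicate block, Il7r (0.57, adjusted p = 0.0605) and Cd69 (0.78, adjusted p = 0.0517) lost their spleen calls and Itga4 gained one in marrow (0.30, adjusted p = 0.0442). The block changed no other member's call. Among listed genes in liver, where only the rule used pairs the numbers, it called Vcam1 (0.23, adjusted p = 0.0144), S1pr5 (-0.37, adjusted p = 0.0392) and Jak3 (0.37, adjusted p = 0.0460). The rank test also left Il7r (adjusted p = 0.0874) and Cd69 (adjusted p = 0.0538) uncalled in spleen.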
